A study of Caenorhabditis elegans with 15 samples.

Results

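Cytochrome P450 genes were followed through 15 whole-worm RNA libraries of Caenorhabditis elegans. A gene counted as a member if its row in the deposited tables carried a standard P450 name, "cyp" followed by a family number, a subfamily letter and a gene number. Of 42048 rows, 75 matched. The 49 of these with a mean of at least 1 RPKM (reads scaled to gene length and library depth) over the 15 libraries are described here. Just inside that limit stood cyp-13A10 at 1.03 RPKM, and just outside stood cyp-34A6 at 0.9995, cyp-13B1 at 0.97 and cyp-13B2 at 0.94 RPKM. The 26 rows left out had a median of 0.34 RPKM, and cyp-35B3 was listed at 0 in all libraries. The P450 gene daf-9 has a name of another form and is given among the pathway genes below.

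All worms were whole adults on day 1, kept at 20 °C, and each of the 5 groups had 3 libraries. In 4 groups the strain was SHU47, labelled glp-1 and called germline-less by the submitters, and the feeding RNAi was directed at hlh-30, atg-2 or atg-18, or was luc, which the titles name and which served as the control. In the fifth group the strain was TU3401, with no glp-1 label, also on luc. RNAi was fed as HT115 (DE3) bacteria carrying an L4440 vector in all groups. TU3401 is known as a sid-1 mutant in which the double-stranded RNA channel SID-1 is put back under a pan-neuronal promoter, so feeding RNAi acts mainly in neurons. The "gTU" in the titles of the SHU47 samples points to the same background, although the labels do not give the alleles. Libraries held between 17496624 and 25599148 reads counted in genes, a depth worked out from the smallest steps of RPKM. Reads outside the counted genes are not known. Separate cultures are not stated for the libraries of a group, so a p-value here reflects only how these libraries vary, and that variation may be technical.

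Cytochrome P450 enzymes are heme proteins that use molecular oxygen and electrons from NADPH to add an oxygen atom to small lipophilic molecules. In the endoplasmic reticulum the electrons pass through NADPH-cytochrome P450 reductase, in C. elegans the product of emb-8, and in part through cytochrome b5. Worm P450s are grouped into a CYP2 clan, expanded in nematodes and rich in genes that respond to xenobiotics, a CYP3 clan, a CYP4 clan with fatty acid hydroxylase relatives, and a mitochondrial clan. Many are expressed in the intestine, which serves as both gut and liver of the worm. Others act on steroid hormones, on polyunsaturated fatty acids or on lipids of the eggshell.

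P450 levels spanned about 2 orders of magnitude. Mean RPKM over the 15 libraries ran from 1.03 to 104.3 with a median of 12.3, and 30 of the 49 genes reached 10 RPKM. Because RPKM is scaled by gene length, levels of different genes can be set side by side. The highest were cyp-35A2 (104.3 RPKM), a xenobiotic-inducible gene of a family tied to intestinal fat storage, cyp-25A2 (83.3), cyp-25A1 (73.2), cyp-37A1 (59.9) and cyp-35C1 (59.3), another xenobiotic-inducible gene. The CYP2 clan supplied 28 of the 49 genes from 44 rows, the CYP3 clan 9 from 19, the CYP4 clan 11 from 11 and the mitochondrial clan 1 from 1. The 49 genes summed to 1072 ± 47.7 RPKM in glp-1 libraries labelled hlh-30 RNAi, 1165 ± 30.95 in those labelled atg-2 RNAi, 1164 ± 62.9 in those labelled atg-18 RNAi, 1062 ± 37.8 in glp-1 luc and 492 ± 5.97 in TU3401 luc (SD, n = 3 each).

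**Figure D1:**
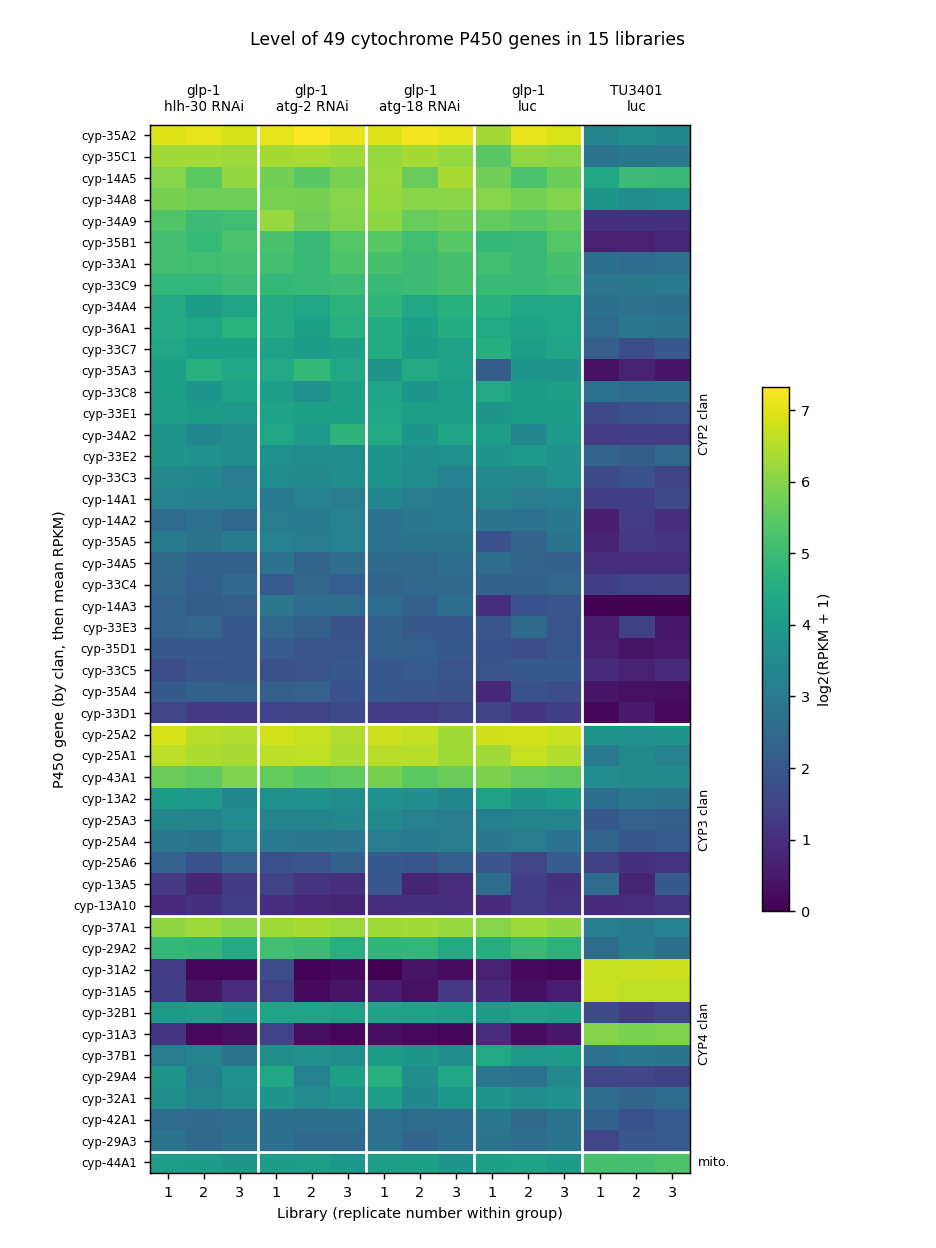
Levels of the 49 P450 genes (rows, by clan and then by mean level) in the 15 libraries (columns, 3 per group), coloured by log2(RPKM + 1). Most rows are brighter in the 12 glp-1 libraries than in the 3 TU3401 libraries, while the 3 cyp-31A rows and cyp-44A1 run the other way.

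The heat map of all members shows a step between glp-1 and TU3401 worms in most genes, and smaller steps among the glp-1 groups. Setting glp-1 luc beside TU3401 luc worms asks how P450 RNA of the whole animal differs between the germline-less strain SHU47 and TU3401. Absence of the germline cannot be told apart from any other difference between these strains. Of 48 members tested, 42 were higher in glp-1 luc worms (87.5%, against 41.4% of all 13569 genes tested) and 4 were lower (8.33%, against 48.3% of all genes), at a limma Benjamini-Hochberg adjusted p under 0.05. The 46 called genes (89.7% of all genes were called in either direction) were also those whose 3 libraries per group did not overlap, which held for 90.2% of all genes. The median difference of the members was 1.53 on the log2(RPKM + 1) scale, on which all genes had a median of -0.19, and this scale understates the change of low genes. The authors' deposited table puts 46 of the 48 under a false discovery rate of 0.05 (88.5% of all genes), all in the same direction.

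The level used to choose members leans towards glp-1 worms, since 12 of the 15 libraries are glp-1, so these counts describe the 49 genes and not every P450 row. Over all 75 rows the mean was higher in glp-1 luc for 61, lower for 13 and equal for 1. Among the 26 rows left out it was higher for 17 and lower for 8. A pair of those was high enough to be tested, cyp-13B1 (-0.37, limma adjusted p = 0.0371) and cyp-13B2. cyp-13B2 held 0, 1 and 2 reads in the glp-1 luc libraries, against 156, 159 and 184 reads in TU3401 luc (-2.44, limma adjusted p = 7.68e-07). Both CYP13B genes were thus lower in glp-1 worms.

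**Figure D2:**
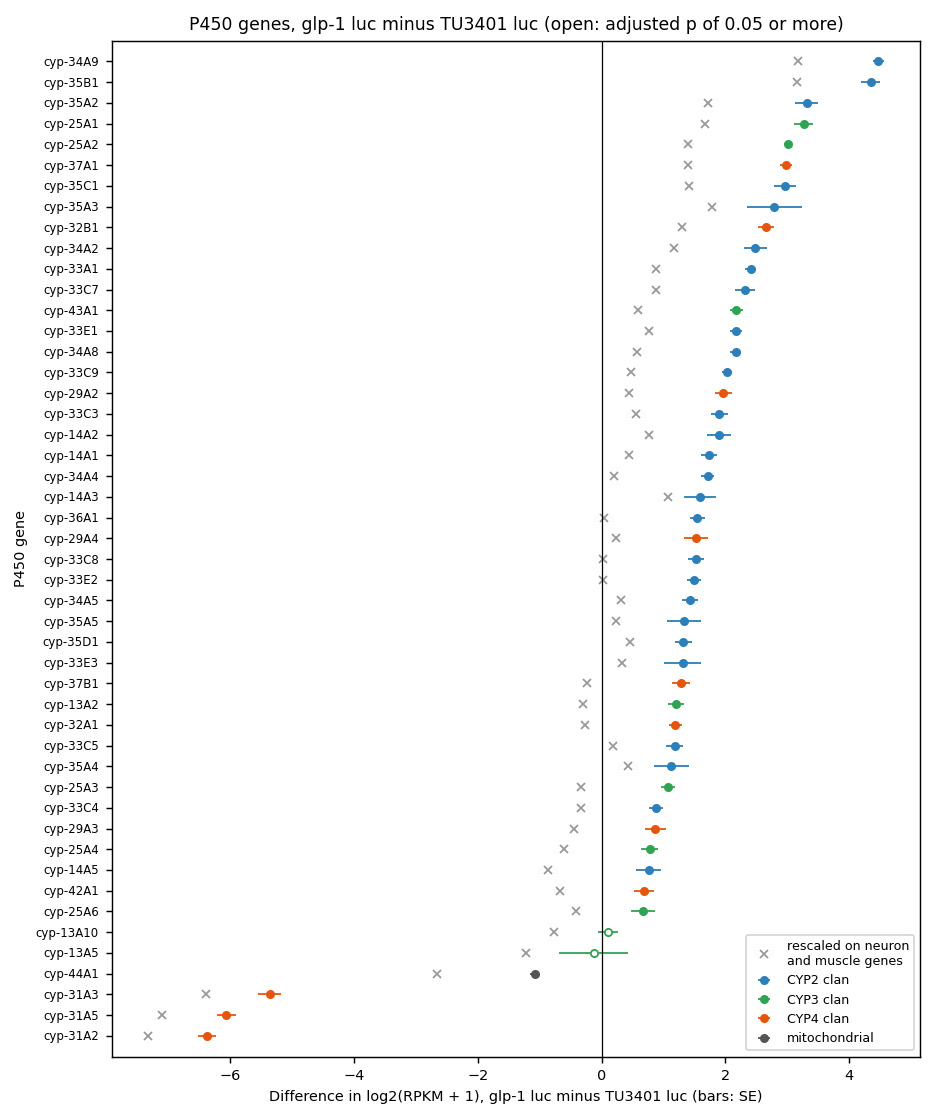
Difference of each of 48 P450 genes between glp-1 luc and TU3401 luc worms in log2(RPKM + 1), with limma standard errors, coloured by clan; open circles did not pass an adjusted p of 0.05, and grey crosses give the difference after rescaling on 28 neuron and muscle genes. cyp-34A9 and cyp-35B1 stand farthest to the right (4.48 and 4.35), and the 3 cyp-31A genes farthest to the left (-5.37 to -6.38).

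Clans differed in how uniform they were. All 27 tested CYP2 clan genes were higher in glp-1 luc worms (median 1.74, range 0.76 to 4.48). Among them were all 7 tested CYP35 genes, all 5 tested CYP34 genes and all 10 tested CYP33 genes. The 26 rows left out for low level were less uniform. Every glp-1 luc library lay above every TU3401 luc library for 14 of them and below for 4. Those 4 included the CYP2 clan genes cyp-34A1 (mean 0.0495 RPKM in glp-1 luc and 0.398 in TU3401 luc) and cyp-23A1 (0.386 and 0.674). In the CYP3 clan 7 of 9 were higher, including all 5 CYP25 genes, while cyp-13A10 (0.10) and cyp-13A5 (-0.13) did not pass. In the CYP4 clan 8 of 11 were higher and the other 3, all of CYP31, were lower. The mitochondrial cyp-44A1 was lower.

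The largest positive difference was in cyp-34A9, also named dod-16 because its RNA lies downstream of the longevity factor DAF-16. It stood at 46.4, 41.9 and 47.7 RPKM in glp-1 luc worms, against 1.06, 1.11 and 1.06 RPKM in TU3401 luc worms. All glp-1 libraries were far above all TU3401 libraries, with means of 45.4 ± 3.03 and 1.08 ± 0.0305 RPKM (SD, n = 3 each), a ratio of 42.1 and a log2 difference of 4.48 ± 0.08 (SE, limma adjusted p = 3.31e-08). cyp-35B1, or dod-13, a DAF-16 target of the same kind, stood at 28.5, 29.8 and 41.3 RPKM in glp-1 luc, against 0.590, 0.595 and 0.783 RPKM in TU3401 luc. Its ratio of means was the larger at 50.6 (33.2 ± 7.07 against 0.656 ± 0.110 RPKM), although on the log2(RPKM + 1) scale its difference was 4.35 ± 0.15.

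The most abundant P450s came next. cyp-35A2 stood at 79.4, 132 and 119.2 RPKM in glp-1 luc, against 9.05, 11.1 and 9.602 RPKM in TU3401 luc (3.32 ± 0.19, limma adjusted p = 1.48e-06). The adjacent CYP25 pair behaved alike: cyp-25A1 stood at 79.0, 103 and 88.96 RPKM in glp-1 luc, against 6.97, 10.4 and 8.18 in TU3401 luc (3.27 ± 0.15). cyp-25A2 stood at 110, 115 and 104.1 RPKM in glp-1 luc, against 12.8, 12.3 and 13.05 in TU3401 luc (3.01 ± 0.06). In each of these genes the lowest glp-1 luc library lay far above the highest TU3401 luc library.

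A CYP4 clan gene followed, cyp-37A1, at 63.1, 75.5 and 68.1 RPKM in glp-1 luc, against 7.83, 7.18 and 8.49 RPKM in TU3401 luc (2.98 ± 0.09). cyp-35C1 stood at 42.5, 69.6 and 64.2 RPKM in glp-1 luc, against 6.05, 6.77 and 6.59 in TU3401 luc (2.97 ± 0.18). The groups were again well apart. cyp-35A3, a xenobiotic-inducible CYP35, was the least even of the large differences, at 3.5, 13.4 and 13.3 RPKM in glp-1 luc, against 0.256, 0.628 and 0.368 in TU3401 luc (2.79 ± 0.44, limma adjusted p = 6.08e-04). Its glp-1 luc library 1 lay well below the other two. cyp-32B1 of the CYP4 clan averaged 16.4 ± 1.78 RPKM in glp-1 luc and 1.77 ± 0.371 in TU3401 luc (2.66), and cyp-34A2 averaged 13.5 ± 3.51 in glp-1 luc and 1.53 ± 0.0463 in TU3401 luc (2.49).

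Some P450s with a known role changed less. cyp-36A1, which in C. elegans acts downstream of the hypoxia regulators EGL-9 and HIF-1, stood at 20.8, 17.7 and 18.7 RPKM in glp-1 luc, against 4.93, 6.64 and 6.06 in TU3401 luc (1.55 ± 0.12, limma adjusted p = 8.28e-06). The eicosanoid-forming cyp-33E2, which acts on eicosapentaenoic acid, averaged 13.3 ± 1.11 RPKM in glp-1 luc and 4.10 ± 0.576 in TU3401 luc (1.49). cyp-29A3, linked to the same fatty acid products, averaged 5.75 ± 0.522 in glp-1 luc and 2.73 ± 0.743 in TU3401 luc (0.87). cyp-37B1 averaged 16.8 ± 3.58 in glp-1 luc and 6.25 ± 0.412 in TU3401 luc (1.28). These 4 genes all passed the test, with ratios of means between 2.105 and 3.24.

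The remaining families filled the middle of the range. The 10 tested CYP33 genes, the largest family among the members, differed by 0.88 to 2.41, led by cyp-33A1 at 33.3, 29.9 and 35.7 RPKM in glp-1 luc, against 5.54, 4.95 and 5.63 RPKM in TU3401 luc. cyp-43A1 of the CYP3 clan stood at 58.3, 48.7 and 45.9 RPKM in glp-1 luc, against 11.1, 10.1 and 9.98 in TU3401 luc (2.18 ± 0.10). Both genes were clear of overlap. The 4 CYP14 genes differed by 0.76 to 1.89, and the lowest of them, cyp-14A5, stood at 52.2, 36.8 and 49.98 RPKM in glp-1 luc, against 20.03, 31.8 and 29.6 in TU3401 luc. The 3 CYP29 genes differed by 0.87 to 1.97, and the pair of CYP32 genes by 1.20 and 2.66. cyp-42A1 had a small difference (0.68). cyp-33D1 was not tested because its mean over the 6 libraries was under 1 RPKM, and it stood at 1.71, 1.23 and 1.57 RPKM in glp-1 luc, against 0.114, 0.442 and 0.132 in TU3401 luc.

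A ratio is poorly held at the bottom of the range. cyp-14A3 had 203 reads in all glp-1 luc libraries together and 1 read in all TU3401 luc libraries together. The ratio of their depth-scaled totals was 230 (95% exact interval for counting error only, 40.9 to 9146). At the other end cyp-13A5 did not repeat within groups, at 5.004, 1.57 and 1.07 RPKM in glp-1 luc, against 4.95, 0.687 and 3.15 RPKM in TU3401 luc.

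The 4 lower genes were of 2 kinds. CYP-31A2 and CYP-31A3 make lipids of the permeability barrier of the eggshell together with EMB-8. cyp-31A2 stood at 0.599, 0.143 and 0.0864 RPKM in glp-1 luc, against 102, 103 and 105 RPKM in TU3401 luc (-6.38 ± 0.15, limma adjusted p = 4.03e-08). cyp-31A3 stood at 0.932, 0.179 and 0.375 RPKM in glp-1 luc, against 62.1, 57.2 and 59.2 in TU3401 luc (-5.37 ± 0.18). cyp-31A5 of the same subfamily stood at 0.873, 0.221 and 0.489 RPKM in glp-1 luc, against 103, 97.8 and 98.5 in TU3401 luc (-6.07 ± 0.15). In TU3401 worms these were among the highest P450s, while in glp-1 luc worms none of the 3 reached 1 RPKM. cyp-31A genes are close in sequence, so how the authors' counting split reads among them is uncertain, and the same holds for other tandem P450 copies.

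**Figure D3:**
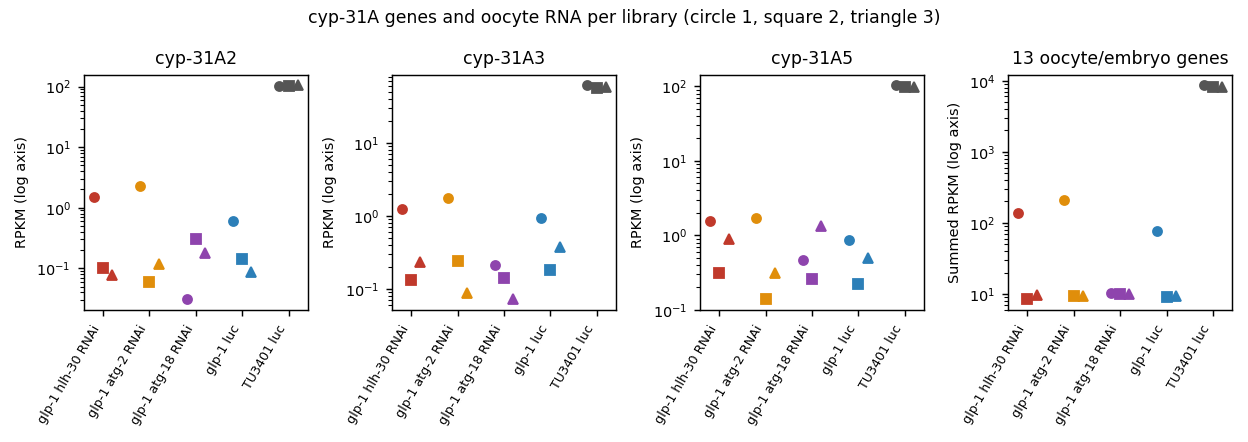
RPKM of cyp-31A2, cyp-31A3 and cyp-31A5 and summed RPKM of 13 oocyte and embryo genes in each of the 15 libraries, on log axes; circles, squares and triangles are libraries 1, 2 and 3 of a group. TU3401 libraries sit between 57.2 and 105 RPKM for the genes, and within the hlh-30 RNAi, atg-2 RNAi and luc groups of glp-1 worms library 1 is highest in every panel.

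The plots of the cyp-31A genes show a second, smaller spread among glp-1 libraries, which in part went with residual oocyte RNA. The summed level of 13 oocyte and embryo genes was 137, 8.37 and 9.62 RPKM in libraries labelled hlh-30 RNAi, 209, 9.43 and 9.33 in those labelled atg-2 RNAi, 9.85 to 10.3 in those labelled atg-18 RNAi, 77.8, 9.06 and 9.46 in glp-1 luc, and 8079 to 8636 in TU3401 luc. cyp-31A2 stood at 1.48, 0.1001 and 0.0768 RPKM in libraries labelled hlh-30 RNAi, at 2.31, 0.0595 and 0.116 in those labelled atg-2 RNAi and at 0.0306, 0.306 and 0.178 in those labelled atg-18 RNAi. Library 1 was thus highest for both measures in 3 of the 4 glp-1 groups. cyp-31A5 followed less closely: it stood at 1.55, 0.309 and 0.889 RPKM in libraries labelled hlh-30 RNAi, 1.70, 0.138 and 0.314 in those labelled atg-2 RNAi and 0.472, 0.258 and 1.32 in those labelled atg-18 RNAi. Its level in hlh-30 RNAi library 3 and atg-18 RNAi library 3, with little oocyte RNA, was as high as the 0.873 RPKM of luc library 1. The part of oocyte RNA in other results was not tested. With libraries numbered 1 left out, the counts against TU3401 stayed at 42 higher and 4 lower.

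cyp-44A1, the member of the mitochondrial clan, was lower by a smaller step. It stood at 16.7, 17.6 and 15.2 RPKM in glp-1 luc, against 35.6, 34.1 and 37.9 RPKM in TU3401 luc. The means were 16.5 ± 1.20 and 35.9 ± 1.96 RPKM, and the difference was -1.07 ± 0.08 (limma adjusted p = 6.69e-06). Unlike cyp-31A RNA it was not close to 0 in any glp-1 library, with a range of 13.5 to 17.6 RPKM over all 12.

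Whole-worm RNA mixes tissues, and fewer cells of a type cannot be told apart from less RNA per cell. Germline genes were far lower in glp-1 luc worms: 16 of them summed to 103 to 142 RPKM in glp-1 luc, against 4639 to 4872 RPKM in TU3401 luc, and all 16 were lower. Up to 5 of the 16 germline genes and up to 4 of the 13 oocyte and embryo genes were listed at 0 in a glp-1 library. Somatic marker lists were mixed. 12 intestinal genes summed to 16496 to 17777 RPKM in glp-1 luc, against 6248 to 6841 in TU3401 luc (11 higher, 1 lower), all 13 muscle genes were higher, and 12 of 15 neuronal genes were higher and 1 lower. Of 6 pharynx genes 4 were higher and 2 lower, and all 3 coelomocyte genes were higher. Of 6 tested hypodermis genes, however, 2 were higher and 4 lower (median -2.25), although the list summed to 1153 to 1545 RPKM in glp-1 luc, against 521 to 608 RPKM in TU3401 luc. Their part in the P450 differences was not tested, but the members were also compared relative to neuron and muscle RNA.

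After libraries were rescaled on 28 neuron and muscle genes, the differences of all genes shifted by a median of -1.48. The median difference of the members then stood at 0.33, against -1.60 for all genes, which include germline genes. The 12 intestinal genes then had a median of -0.42 (2 higher, 7 lower). The muscle and neuron genes that set the scale had medians of 0.26 (6 of 13 higher, 2 lower) and -0.45 (0 of 15 higher, 7 lower). Muscle genes supply most of the sum used for that scaling (11524 to 14058 RPKM, against 1028 to 1186 RPKM for neuron genes, in glp-1 luc worms). On that scale 21 members were higher in glp-1 luc worms (43.8%, against 9.56% of all genes) and 9 lower (18.8%, against 66.2% of all genes), so 70.0% of the called members were higher, against 91.3% as deposited. The 10 members with the largest positive differences all stayed higher, from 1.18 for cyp-34A2 to 3.18 for cyp-34A9 and 3.16 for cyp-35B1. cyp-36A1 (0.03) and cyp-37B1 (-0.23) no longer passed. In the CYP2 clan 15 of 27 genes stayed higher, 1 turned lower and 11 did not pass. In the CYP3 clan 3 were higher and 3 lower, and in the CYP4 clan 3 were higher and 4 lower. cyp-44A1 (-2.66) and the 3 cyp-31A genes (-6.39 to -7.33) stayed lower.

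Neighbouring P450 genes were alike in size of difference in some runs and not in others. In the RefSeq annotation of WBcel235, 38 P450 genes stand in 11 runs with no other protein-coding gene between them, and 22 of these genes are members. In the run of 6 CYP34A genes, cyp-34A5, cyp-34A8 and cyp-34A9 differed by 1.43, 2.17 and 4.48 on the log2(RPKM + 1) scale, while cyp-34A6, cyp-34A7 and cyp-34A10 were under 1 RPKM on average. cyp-35B1 (4.35) shares its run with cyp-35A5 (1.33) and with cyp-35B2 and cyp-35B3, which were too low to be members. In the CYP25 run cyp-25A1 and cyp-25A2 differed by 3.27 and 3.01, and cyp-25A3 by 1.07. The pair of cyp-33E2 and cyp-33E3 was even, at 1.49 and 1.31. In the run of cyp-14A1, cyp-14A2 and cyp-14A3 the differences were 1.74, 1.89 and 1.59, but this scale understates low genes. cyp-14A3 averaged 2.15 RPKM in glp-1 luc and 0.0087 in TU3401 luc, a far larger ratio than the 8.14 and 1.75 RPKM of cyp-14A1. In the CYP33C run cyp-33C4, cyp-33C3, cyp-33C5 and cyp-33C7 differed by 0.88, 1.91, 1.19 and 2.32, with cyp-33C6 too low to be a member. Neighbours could also differ in direction. In the run of 7 CYP13A genes cyp-13A2 differed by 1.21 and cyp-13A5 by -0.13, which did not pass, and the others were too low to be members. cyp-34A2 (2.49) stands beside cyp-34A1, too low to be tested, which averaged 0.0495 RPKM in glp-1 luc and 0.398 in TU3401 luc.

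Genes that work with P450s were counted from lists by role. Beside these counts stand the 41.4% of all genes that were higher and the 48.3% that were lower in glp-1 luc worms, and the 9.56% and 66.2% on the neuron and muscle scale. Of 4 electron partners tested, 2 were higher and 0 lower in glp-1 luc worms: cytb-5.1 (1.71) and cytb-5.2 (0.60), both cytochrome b5 genes. emb-8, the reductase that serves microsomal P450s, stood at 84.4, 66.4 and 77.6 RPKM in glp-1 luc, against 83.8, 85.0 and 83.3 RPKM in TU3401 luc. These overlapped, and the difference of -0.15 did not pass (limma adjusted p = 0.156). Relative to neuron and muscle RNA, 0 of the 4 were higher and 3 were lower, with emb-8 at -1.79 and cytb-5.1 at 0.05.

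Substrate and product enzymes were higher in glp-1 luc worms as well. All 6 tested genes for polyunsaturated fatty acids and their epoxides passed as higher, and 3 of them on the neuron and muscle scale too. They include the desaturase fat-2 (3207 ± 141 RPKM in glp-1 luc and 710.0 ± 37.9 in TU3401 luc, 2.17) and the epoxide hydrolases ceeh-1 (2.09) and ceeh-2 (2.17), which open the epoxides that some P450s form. Of 6 heme supply genes 5 were higher and 0 lower, among them the heme importers hrg-1 (2.18) and hrg-4 (1.76) and the heme exporter mrp-5 (1.45). On the neuron and muscle scale 1 of these 6 was higher and 2 were lower.

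The hormone branch was mixed. daf-9, the P450 that makes dafachronic acid, the ligand of the nuclear receptor DAF-12, lay between 0.530 and 1.03 RPKM in every library and was too low to be tested. Of 4 other genes of that pathway tested, 3 were higher in glp-1 luc worms, daf-12 itself (1.73), the sterol transporter ncr-1 (1.48) and the Rieske oxygenase daf-36 (0.99), and the DAF-12 corepressor gene din-1 was lower (-0.44). On the neuron and muscle scale 0 were higher and 2 lower. Of 15 regulators of P450 or detoxification genes 7 were higher, such as nhr-80 (2.01), pqm-1 (1.73) and hif-1 (1.31), and 6 were lower, such as nhr-66 (-2.47), nhr-86 (-1.17) and skn-1 (-0.89). On the neuron and muscle scale 1 was higher and 11 were lower, and on both scales the shares of regulators were close to those of all genes. Of 19 ABC export pumps 15 were higher, led by pgp-3 (2.52), pgp-9 (2.38) and pgp-2 (1.87), and 4 were lower, led by mrp-4 (-2.84), mrp-7 (-2.40) and pgp-4 (-0.88). On the neuron and muscle scale 3 pumps were higher and 7 lower.

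The RNAi groups of glp-1 worms ask whether neuronal knockdown of hlh-30, the worm TFEB, or of the autophagy genes atg-2 and atg-18 alters P450 RNA. The target RNA was not lower on average in the libraries that carry its label. hlh-30 averaged 249 ± 108 RPKM in libraries labelled hlh-30 RNAi and 50.01 ± 5.08 in glp-1 luc, atg-2 averaged 40.2 ± 2.66 in libraries labelled atg-2 RNAi and 30.1 ± 4.19 in glp-1 luc, and atg-18 averaged 82.0 ± 33.3 in libraries labelled atg-18 RNAi and 72.5 ± 5.23 in glp-1 luc. The 3 atg-18 RNAi libraries stood at 49.1, 81.3 and 116 RPKM of atg-18, so library 1 lay below every luc library (78.5, 68.8 and 70.1 RPKM). The RNAi groups are therefore named as labelled, without assuming that the target was lower. The 3 comparisons with luc share the glp-1 luc libraries, so likeness between them is not independent.

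No member passed in any RNAi group against luc. The 3 cyp-31A genes were too low there to be tested, as was cyp-13A10 for atg-2 RNAi. For hlh-30 RNAi, 0 of 46 members were called by limma (7 at an unadjusted p under 0.05, or 15.2%, against 9.50% of all genes), with 0.0880% of 12494 genes called in all. For atg-2 RNAi, 0 of 45 were called (11 at an unadjusted p under 0.05, or 24.4%, against 7.66% of all genes), with 0.00% of 12548 genes called. For atg-18 RNAi, 0 of 46 were called (6 at an unadjusted p under 0.05, or 13%, against 6.83% of all genes), with 0.00% of 12441 genes called. Counts from limma voom on the recovered reads were also 0 in all 3 comparisons. Groups did not overlap for 9 members with hlh-30 RNAi (19.6%, against 14.5% of all genes), for 12 with atg-2 RNAi (26.7%, against 13.4%) and for 9 with atg-18 RNAi (19.6%, against 11.8%). Members' median differences were -0.0079, 0.071 and 0.075, against -0.011, -0.0078 and -0.0059 for all genes.

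**Figure D4:**
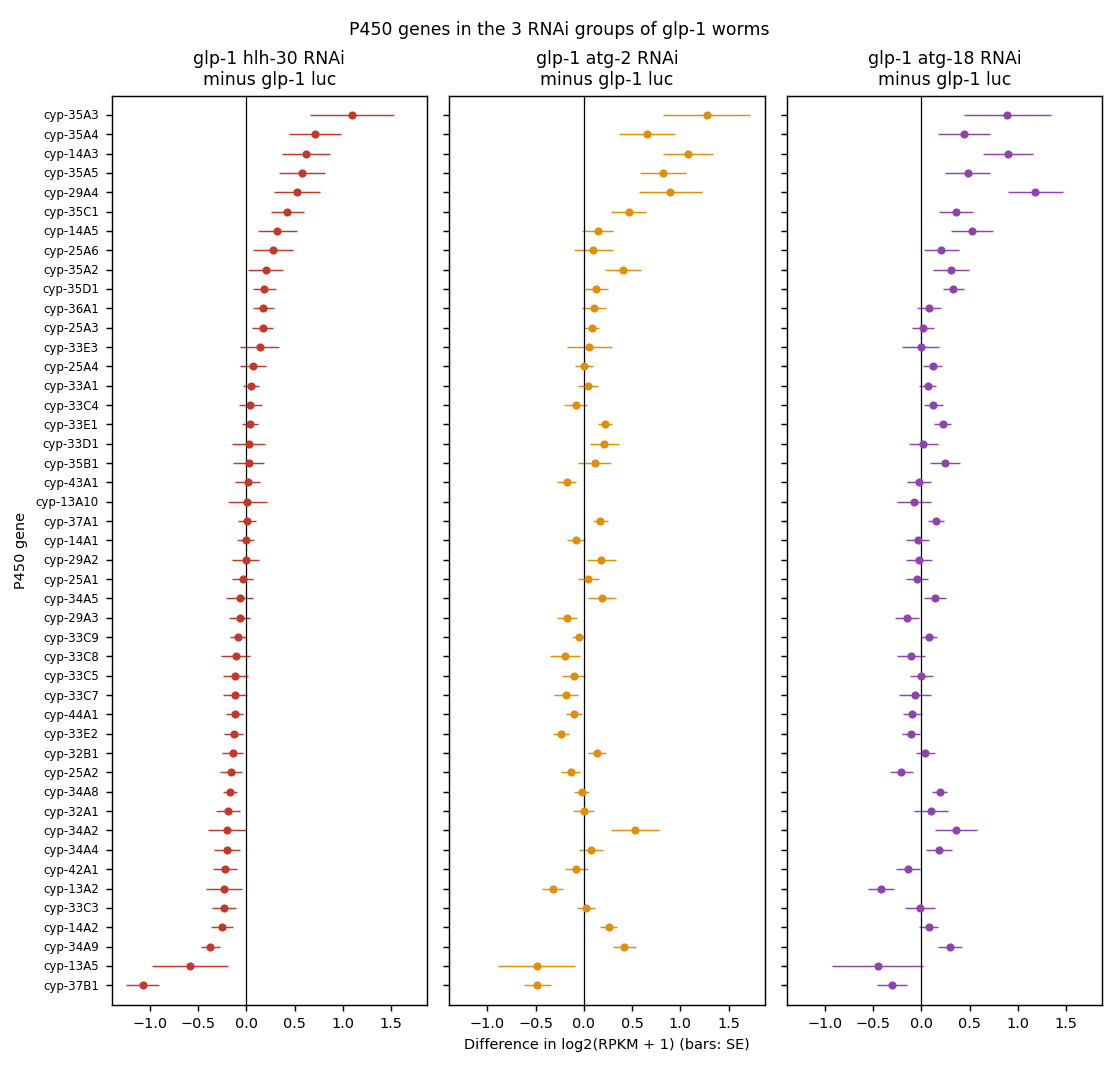
Difference of P450 genes in log2(RPKM + 1) between each RNAi group of glp-1 worms and glp-1 luc, with limma standard errors, genes in 1 order for all panels. The 3 panels share the luc libraries; cyp-35A3 leads the hlh-30 RNAi panel (1.09) and cyp-37B1 closes it (-1.07).

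The member with the smallest p for libraries labelled hlh-30 RNAi was cyp-37B1 of the CYP4 clan. It stood at 7.52, 8.73 and 6.01 RPKM there, against 20.9, 14.4 and 15.1 RPKM in glp-1 luc. Every hlh-30 RNAi library was below every luc library, and the level was close to the 5.86 to 6.68 RPKM of TU3401 luc. The difference was -1.07 ± 0.17 (SE) with a limma adjusted p of 0.114. It was 0.0133 when the 12 glp-1 libraries shared 1 fit, and -0.92 to -1.19 with an adjusted p of 0.160 to 0.315 when each of the 6 libraries was left out in turn. The authors' deposited table gives -1.16 with a false discovery rate of 0.00118, the only member under 0.05 there (0.736% of all genes).

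The next by p in the hlh-30 RNAi comparison was cyp-34A9, at 39.7, 31.9 and 33.2 RPKM in libraries labelled hlh-30 RNAi, against 46.4, 41.9 and 47.7 in glp-1 luc (-0.37, limma adjusted p = 0.356). The groups did not overlap, yet the gap between them was small, at 39.7 against 41.9 RPKM. The other 3 were cyp-35A4 (0.71, adjusted p = 0.489), cyp-14A3 (0.62, adjusted p = 0.505) and cyp-35A3 (1.09, adjusted p = 0.505), all with limma and none called.

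Several positive differences shrank without glp-1 luc library 1. That library was the lowest of all 12 glp-1 libraries for 9 members, 6 of them from the 7 CYP35 members. Next came atg-18 RNAi library 3, lowest for 7 members, and each of the rest was lowest for 1 to 6. The share over all genes was not counted. In luc library 1 cyp-35A3 stood at 3.5 RPKM, against 13.3 in the next lowest library, and cyp-35A2 at 79.4, against 117. cyp-35A4 stood at 0.800 against 2.34, cyp-35A5 at 2.57 against 4.20, and cyp-35C1 at 42.5 against 64.2. Without it the cyp-35A3 difference was 0.54 for hlh-30 RNAi (1.09 with it), 0.72 for atg-2 RNAi (1.27) and 0.33 for atg-18 RNAi (0.89). For cyp-35A2 it was -0.017 for hlh-30 RNAi (0.20 with it), 0.19 for atg-2 RNAi (0.40) and 0.088 for atg-18 RNAi (0.31). In the hlh-30 RNAi comparison cyp-35A4 was 0.40 without it (0.71 with it) and cyp-14A3 was 0.33 (0.62 with it). The same library had the most oocyte RNA of the luc group (77.8 RPKM), and the part of that in these values was not tested.

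In libraries labelled atg-2 RNAi the smallest p belonged to cyp-14A3, at 6.49, 4.85 and 5.05 RPKM, against 1.03, 2.60 and 2.84 RPKM in glp-1 luc (1.08 ± 0.26, limma adjusted p = 0.434). Without luc library 1 it was 0.79. cyp-37B1 stood at 11.4, 12.04 and 11.3 RPKM there, against 20.9, 14.4 and 15.1 in glp-1 luc (-0.48, adjusted p = 0.481, and -0.32 without luc library 1). cyp-35A5 (0.82), cyp-34A9 (0.42) and cyp-33E1 (0.21) followed with a limma adjusted p of 0.491 to 0.538. None of these groups overlapped. None of the 5 passed with the replicate number as a block, a pairing taken from the values and not from the labels (lowest blocked limma adjusted p among them 0.151).

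In libraries labelled atg-18 RNAi cyp-29A4 of the CYP4 clan had the smallest p, at 24.1, 11.6 and 18.9 RPKM, against 6.33, 5.72 and 10.03 RPKM in glp-1 luc. Each atg-18 RNAi library lay above each luc library, with 11.6 against 10.03 RPKM at the closest point. The difference was 1.18 ± 0.29 with a limma adjusted p of 0.673, while the authors' deposited table gives 1.30 with a false discovery rate of 0.00641 (0.354% of all genes were under 0.05). cyp-29A4 varied as widely in libraries labelled atg-2 RNAi (19.96, 8.30 and 17 RPKM). The others were cyp-14A3 (0.90, and 0.60 without luc library 1), cyp-13A2 (-0.42), cyp-35D1 (0.33) and cyp-33E1 (0.22, and 0.14 without atg-18 RNAi library 1), with a limma adjusted p of 0.673 to 0.724.

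Direct comparisons between RNAi groups do not use the luc libraries for the difference, and all 12 glp-1 libraries entered 1 fit for the spread. Between hlh-30 RNAi and atg-2 RNAi, 0 of 46 members were higher (0.578% of 12460 genes were called higher) and 2 were lower in libraries labelled hlh-30 RNAi (4.35%, against 0.433% of all genes called lower). They were cyp-34A9 and cyp-14A2. Groups did not overlap for 12 members, all lower in libraries labelled hlh-30 RNAi (26.1%, against 8.27% of all genes lower). With hlh-30 RNAi against atg-18 RNAi, 0 were higher (0.465% of all genes were called higher) and 2 were lower (4.35%, against 0.554% of all genes called lower), cyp-37B1 and cyp-34A8. Here groups did not overlap for 7 members that were lower (15.2%, against 6.85% of all genes lower) and for 1 that was higher, cyp-35A4 (2.17%, against 6.73% of all genes higher). Between atg-2 RNAi and atg-18 RNAi 0 of 46 were called by limma and by voom (1 at an unadjusted p under 0.05, cyp-34A8 at -0.21, where 3.14% of all genes were), with 0.0161% of all genes called. Groups did not overlap there for 5 members (10.9%, against 8.03% of all genes).

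cyp-34A9 stood at 39.7, 31.9 and 33.2 RPKM in libraries labelled hlh-30 RNAi, against 72.6, 52.0 and 59.9 in those labelled atg-2 RNAi (-0.79 ± 0.14, limma adjusted p = 0.0279). In libraries labelled atg-18 RNAi it stood at 67.1, 48.1 and 53.7 RPKM, and the difference of hlh-30 RNAi from it was -0.67 (limma adjusted p = 0.0573, and 0.0017 with the replicate number as a block). In all 3 groups library 1 was the highest, and within each number the hlh-30 RNAi library was the lowest. cyp-14A2 stood at 4.96, 5.78 and 4.56 RPKM in libraries labelled hlh-30 RNAi, against 7.54, 7.27 and 8.12 in those labelled atg-2 RNAi (-0.51 ± 0.10, limma adjusted p = 0.0415). Against atg-18 RNAi its difference was -0.32 (limma adjusted p = 0.218). Those next by p against atg-2 RNAi did not pass: cyp-34A2, at 12.9, 9.78 and 11.7 RPKM in libraries labelled hlh-30 RNAi, against 19.2, 14.6 and 26.2 in those labelled atg-2 RNAi (-0.73, limma adjusted p = 0.191), and cyp-32B1 (-0.28, limma adjusted p = 0.191).

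cyp-37B1 stood at 7.52, 8.73 and 6.01 RPKM in libraries labelled hlh-30 RNAi, against 14.8, 13.8 and 11.3 in those labelled atg-18 RNAi (-0.77 ± 0.15, limma adjusted p = 0.0438). Against atg-2 RNAi its difference was -0.59 (limma adjusted p = 0.110, and 0.0280 with the block). cyp-34A8, which shares a run with cyp-34A9, stood at 55.2, 51.6 and 51.2 RPKM in libraries labelled hlh-30 RNAi, against 72.9, 64.5 and 66.2 in those labelled atg-18 RNAi (-0.36 ± 0.07, limma adjusted p = 0.048). The luc mean of cyp-34A8 (59.5 RPKM) lay between those of hlh-30 RNAi (52.7) and atg-18 RNAi (67.9). For cyp-37B1 the luc mean (16.8 RPKM) lay above both. cyp-34A4, next by p, stood at 20.7, 15.1 and 18.5 RPKM in libraries labelled hlh-30 RNAi, against 27.4, 20.1 and 24.4 in those labelled atg-18 RNAi, which overlapped and did not pass (-0.38, limma adjusted p = 0.360). Between atg-2 RNAi and atg-18 RNAi the next by p after cyp-34A8 were cyp-35D1 (-0.20), cyp-14A2 (0.18), cyp-33C4 (-0.21) and cyp-35A5 (0.35), none called.

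**Figure D5:**
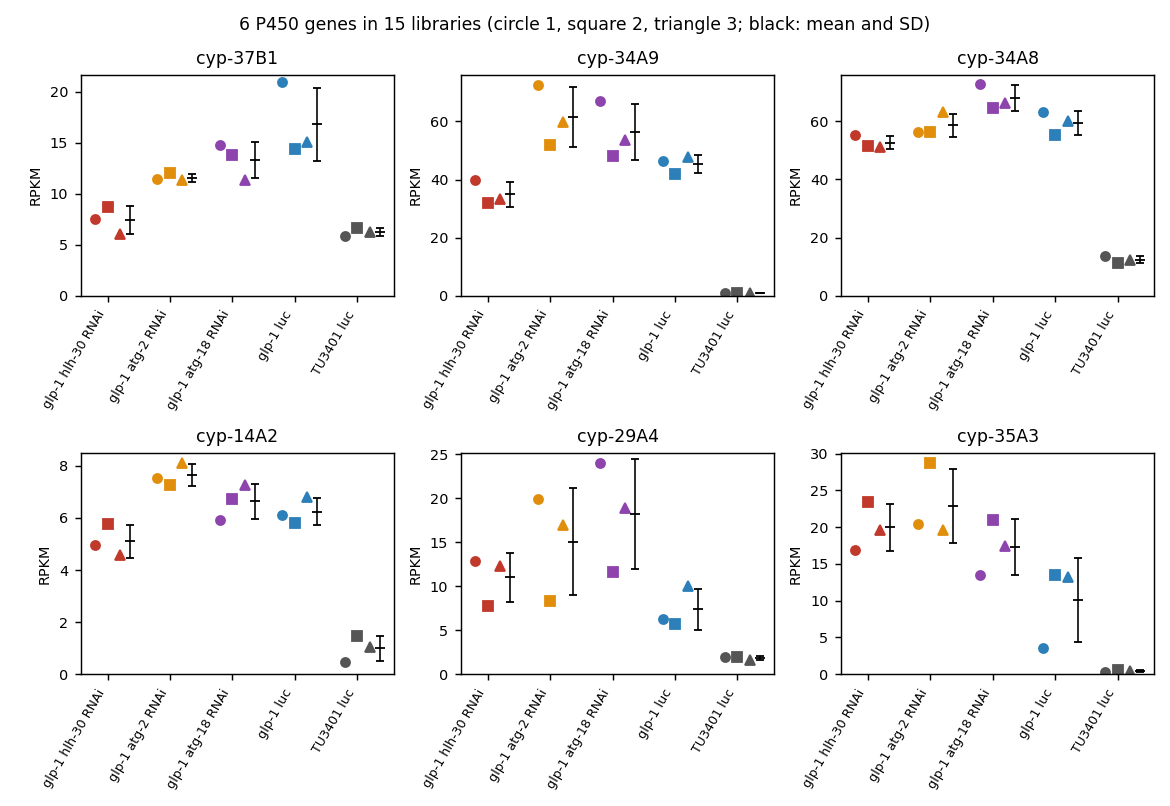
RPKM of 6 P450 genes in each of the 15 libraries, by group; circles, squares and triangles are libraries 1, 2 and 3, and black bars give the mean and SD (n = 3). For cyp-37B1, cyp-34A9, cyp-34A8 and cyp-14A2 the hlh-30 RNAi libraries (leftmost) have the lowest mean of the 4 glp-1 groups, and for cyp-35A3 luc library 1 lies apart at 3.5 RPKM.

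The labels do not say that replicate numbers pair samples, and the pairing rule given below rests on the values tested here. The blocked fit also held the luc libraries, whose numbers met that rule only with atg-2 RNAi. With the replicate number as a block, 4 of 46 members were lower in libraries labelled hlh-30 RNAi than in those labelled atg-2 RNAi. The calls added were cyp-34A2 (-0.73, limma adjusted p = 0.0111) and cyp-37B1. Under the block 5 were lower than in libraries labelled atg-18 RNAi, cyp-34A2, cyp-34A4, cyp-34A8, cyp-34A9 and cyp-37B1. The block raised calls over all genes in either direction too, to 6.08% and 4.06%, beside 4 and 5 of 46 members. In the CYP34 family, cyp-34A8 and cyp-34A9 passed without the block in 1 direct comparison each, while cyp-34A2 and cyp-34A4 passed only with it. These 4 genes had lower means in libraries labelled hlh-30 RNAi than in both other RNAi groups, and none of them passed against luc. The luc means of cyp-34A2, cyp-34A4 and cyp-34A9 lay above those of hlh-30 RNAi and below those of atg-2 and atg-18 RNAi. Calls made without the block were lost in most fits with a library fewer. When each of the 6 libraries was left out in turn, cyp-34A9 passed against atg-2 RNAi in 2 of 6 fits (without hlh-30 RNAi library 1 and without atg-2 RNAi library 2; adjusted p 0.0322 to 0.117 over the 6) and cyp-14A2 in 1 of 6 (without hlh-30 RNAi library 2; 0.0424 to 0.180), while cyp-37B1 and cyp-34A8 passed against atg-18 RNAi in 0 of 6 (lowest adjusted p 0.0555 and 0.0783).

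Summed by family, levels can be set side by side across the 5 groups. CYP34 genes summed to 121 ± 10.9 RPKM in libraries labelled hlh-30 RNAi, 167 ± 18.2 in those labelled atg-2 RNAi, 170.4 ± 20.98 in those labelled atg-18 RNAi, 144 ± 12.8 in glp-1 luc and 21.7 ± 0.881 in TU3401 luc (SD, n = 3 each). CYP35 genes summed to 269 ± 7.57, 296 ± 17.7 and 277 ± 15.1 RPKM in the hlh-30, atg-2 and atg-18 RNAi groups, 221 ± 53.2 in glp-1 luc and 19.2 ± 1.72 in TU3401 luc. CYP25 genes summed to 207 ± 22.4, 212 ± 17.9 and 202 ± 23.7 RPKM in the 3 RNAi groups, 218 ± 16.1 in glp-1 luc and 29.6 ± 1.09 in TU3401 luc, and these sums lay within the spread of the 4 glp-1 groups. The mean CYP34 sum was lowest in libraries labelled hlh-30 RNAi among glp-1 groups, although hlh-30 RNAi library 1 (133 RPKM) lay above luc library 2 (129.8). The sums were not tested. The wide luc spread of CYP35 came from library 1.

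No pathway gene passed against luc. In each comparison of an RNAi group with luc, 0 genes of the 6 lists (electron partners, dafachronic acid pathway, regulators, heme supply, fatty acid and epoxide enzymes, export pumps) were called higher or lower by limma. In direct comparisons the only gene called in these lists was hlh-30 itself, higher in libraries labelled hlh-30 RNAi. emb-8 lay between 62.3 and 84.4 RPKM in all 12 glp-1 libraries.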

How the data were processed

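Total RNA of whole worms was sequenced in 15 libraries. The deposited tables hold RPKM values per gene made by the authors, together with log2 fold changes, p-values with false discovery rates, and a ranking score per gene, per the file headers. TopHat2 2.1.1, bcl2fastq and the build GRCh38, a human assembly, are named in the submitters' processing notes. The counting tool, its annotation, its strand setting and the test were not given in the sources used here. RPKM steps gave whole reads for 100.0% of 24620 detected genes (absolute tolerance 0.0001 reads), so depth was known; each library's depth limits low genes, and counting intervals cover counting error only.

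Tests used limma 3.58.1 (R 4.3.3), allowing a trend of variance with level, on log2(RPKM + 1), for genes with a mean of at least 1 RPKM in the fit, with Benjamini-Hochberg adjustment over all genes tested and a threshold of 0.05. Comparisons with luc or TU3401 used the 6 libraries of both groups, and RNAi groups were compared with each other in a fit of the 12 glp-1 libraries. Exact permutation of 3 against 3 libraries cannot give a p below 0.1, so single-gene permutation tests were not used. The members and the gene lists were chosen with earlier results of these data known. Genes are named by rule: the 10 largest called differences in each direction, the 5 with the smallest p where under 5 were called, and genes with a known role. Symbols matched RefSeq WBcel235 for 74 of the 75 names, and that annotation was used for gene order only. Tables and plots were made in Python 3.11.15. Scripts were tested on simulated data.

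The labels do not say that replicate numbers pair samples. From the values tested here, the numbers were taken to pair samples where same-numbered libraries deviated together across genes with every r over 0.1. This held for atg-2 RNAi against luc (0.402, 0.264 and 0.200), hlh-30 against atg-2 RNAi (0.495, 0.276 and 0.286), hlh-30 against atg-18 RNAi (0.207, 0.259 and 0.234) and atg-2 against atg-18 RNAi (0.157, 0.196 and 0.190). The alternatives tried were another pseudocount (0.1), no filter, no trend, rescaled libraries, the replicate block, other libraries in the fit, each library left out, and, chosen after seeing the data, limma voom on the recovered reads and leaving out the libraries numbered 1.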

Additional observations from a re-analysis of the deposited data

How the results depend on the processing

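Against TU3401 the counts of 42 higher and 4 lower P450 genes moved by over 1.5 times under 1 alternative, rescaling on neuron and muscle genes (21 higher, 9 lower). With each library left out they were 40 to 43 higher and 4 to 4 lower. For hlh-30 RNAi against luc the count of lower genes was 1 in place of 0 when all 12 glp-1 libraries shared 1 fit. For hlh-30 RNAi against atg-2 RNAi the 2 lower genes became 0 with no filter, with no trend, with neuron and muscle scaling, with only the 6 libraries of both groups and without the libraries numbered 1, 1 with median-of-ratios scaling, and 0 to 1 with each library left out. For hlh-30 RNAi against atg-18 RNAi the 2 became 0 with no filter, with no trend, with neuron and muscle scaling, with only the 6 libraries, without the libraries numbered 1 and with each library left out (0 to 0). The cause was not tested, except that fits on 6 libraries hold fewer samples.

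With the replicate number as a block, the pairing gave 4 lower genes for hlh-30 against atg-2 RNAi and 5 for hlh-30 against atg-18 RNAi, and it changed no other count of P450 genes. The numbers did not meet the rule for glp-1 luc against TU3401 luc (r 0.0707, 0.0722 and -0.0238), hlh-30 RNAi against luc (0.358, 0.241 and 0.0690) or atg-18 RNAi against luc (0.231, 0.214 and 0.0841, each library correlating best with its own number), where the block left 42 higher and 4 lower genes, 0 and 0.

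Limma voom on the recovered reads called 12188 genes of all for glp-1 luc against TU3401 luc, 14 for hlh-30 RNAi against luc, 127 for hlh-30 against atg-2 RNAi and 136 for hlh-30 against atg-18 RNAi. Among named genes, 597 values kept direction and side of the threshold, 42 lost the call, 7 gained it and 0 changed sign while called. Genes near 1 RPKM and tandem copies are the least certain.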
